A study of Mus musculus with 10 samples.

Results

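The nuclear genes for the subunits of the mitochondrial respiratory chain and ATP synthase were examined in whole kidneys of mice with a collecting duct deletion of Pkd2, with or without miR-21. Members were the rows whose gene name begins with Nduf followed by a, b, c, s or v, with Uqcr, with Cox followed by 4 to 8, or with Atp5, together with Sdha, Sdhb, Sdhc and Sdhd. This pattern took 92 of the 30431 rows in the authors' deposited tables. Of these, 83 encode structural subunits, namely 38 of complex I, 4 of complex II, 8 of complex III, 18 of complex IV and 15 of complex V, the ATP synthase. The other 9 rows were counted apart: 7 Ndufaf genes, which encode assembly factors of complex I, and Atp5s and Atp5sl, which RefSeq names Dmac2l and Dmac2. Among the 83 subunit rows, 74 are the ubiquitous subunits and 9 are tissue isoforms or paralogues (Cox4i2, Cox6a2, Cox6b2, Cox7a1, Cox7a2l, Cox7b2, Cox8b, Cox8c and Ndufa4l2). Complexes were assigned from the start of the gene name, so Ndufa4 and Ndufa4l2 count under complex I and Cox7a2l under complex IV.

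RNA came from kidneys at postnatal day 21, as 3 libraries labelled Pkhd1Cre; Pkd2 F/F; miR-21null (DM), 3 labelled Pkhd1Cre; Pkd2 F/F (SM) and 4 labelled wild-type (WT). DM and SM kidneys share the floxed Pkd2 alleles and the Pkhd1Cre driver, which is active in the collecting duct, while RNA was taken from the whole organ. The labels do not say whether WT animals carried Cre or floxed alleles. One question is what loss of Pkd2 changes in the kidney, and another is what an added loss of miR-21 changes. Each deposited row holds a log2 fold change, a likelihood ratio score, a p-value and an adjusted p from edgeR for each comparison, and an average log2 CPM (counts scaled to library size) over all libraries. Values per library were not analysed here, so the spread between animals is not shown. The error given is an implied standard error (SE) of each fold change between groups. It is the size of a log2 change over the root of its score. Levels in each group are likewise implied CPM, computed from the average and the fold changes, and a row was called at an edgeR adjusted p below 0.05.

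The respiratory chain passes electrons from NADH (complex I) and succinate (complex II) through ubiquinone, complex III and cytochrome c to oxygen at complex IV, and pumps protons across the inner mitochondrial membrane. Complex V, the ATP synthase, lets the protons flow back and makes ATP. Complex II is encoded in the nucleus alone, whereas each of the others also holds subunits from the mitochondrial genome, which had 0 measured rows here. In the kidney the chain is densest in proximal tubules and other salt-transporting segments, which depend on oxidation for their ATP. Transcription of the nuclear subunits is known to be driven by the factors NRF1 and GABPA, by the estrogen-related receptors and by YY1, with the PGC-1 coactivators.

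Promoters of 3 genes for the same protein and of 5 other subunits show how these genes differ in the binding words of those factors. Sequences are from RefSeq on GRCm38.p6, read 5′ to 3′ along the gene's strand, and cover the 80 bases before the transcription start, except for Cox6a1, where they run from 190 to 111 bases before it. Capitals mark the word GCGCATG, which NRF1 binds, or TNAAGGTCA, the word of the estrogen-related receptors, on either strand. The runs of 10 capitals are the NRF1 word on both strands, overlapping by 4 bases, and sequences without capitals hold neither word in the stretch shown. Atp5g1, Atp5g2 and Atp5g3 encode the same mature c-subunit, which forms the rotor ring of complex V.
Atp5g1 (chr11:96075632-96075711, minus strand): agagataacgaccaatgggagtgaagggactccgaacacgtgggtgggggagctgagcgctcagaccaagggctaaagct
Atp5g2 (chr15:102671048-102671127, minus strand): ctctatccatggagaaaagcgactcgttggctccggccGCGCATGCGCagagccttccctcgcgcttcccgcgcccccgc
Atp5g3 (chr2:73911327-73911406, minus strand): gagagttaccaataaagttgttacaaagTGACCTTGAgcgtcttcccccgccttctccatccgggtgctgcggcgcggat
Atp5k (chr5:108434400-108434479, minus strand): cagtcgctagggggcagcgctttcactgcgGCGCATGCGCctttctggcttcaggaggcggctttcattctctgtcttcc
Ndufa11 (chr17:56717682-56717761, plus strand): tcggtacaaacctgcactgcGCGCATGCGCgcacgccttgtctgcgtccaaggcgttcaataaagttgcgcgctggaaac
Cox6a1 (chr5:115349069-115349148, minus strand): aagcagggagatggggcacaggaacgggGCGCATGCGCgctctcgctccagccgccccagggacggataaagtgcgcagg
Ndufb4 (chr16:37654369-37654448, minus strand): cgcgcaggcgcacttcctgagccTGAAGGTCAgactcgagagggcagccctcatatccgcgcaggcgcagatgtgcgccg
Cox7a1 (chr7:30184091-30184170, plus strand): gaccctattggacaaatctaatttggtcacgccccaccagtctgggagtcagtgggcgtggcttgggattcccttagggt
Atp5g2 with its NRF1 word is the c-subunit gene that passed the threshold in neither comparison with WT. The other genes shown with that word were called in SM kidneys, Atp5k at -1.13, Ndufa11 at -1.03 and Cox6a1 at -1.21 in the authors' deposited table. Cox7a1 is the isoform of complex IV with the lowest deposited fold change in SM over WT among subunits of at least 1 CPM. In DM over WT it stood at -0.72.

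RNA for the respiratory chain was scarcer in SM kidneys than in WT kidneys, across all 5 complexes. In the authors' deposited table for SM over WT, 68 of 83 subunit rows were lower and 0 were higher, and 75 had an unadjusted p below 0.05. Over all 30431 rows 6.09% were lower, 7.87% higher and 23.4% past that unadjusted p, and over the 15135 rows averaging at least 1 CPM 9.47% were lower. The median subunit stood at -0.98 on the log2 scale in the authors' deposited table, 50.7% of the WT level, where the median of all rows was 0. The summed implied CPM of the 83 rows was 18604 in DM kidneys, 16861 in SM kidneys and 33235 in WT kidneys. Among the 74 ubiquitous subunits, 66 were lower in the authors' deposited table, with fold changes from -1.52 to -0.51 and an SD across genes of 0.18, smaller than their median implied SE of 0.29.

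**Figure D1:**
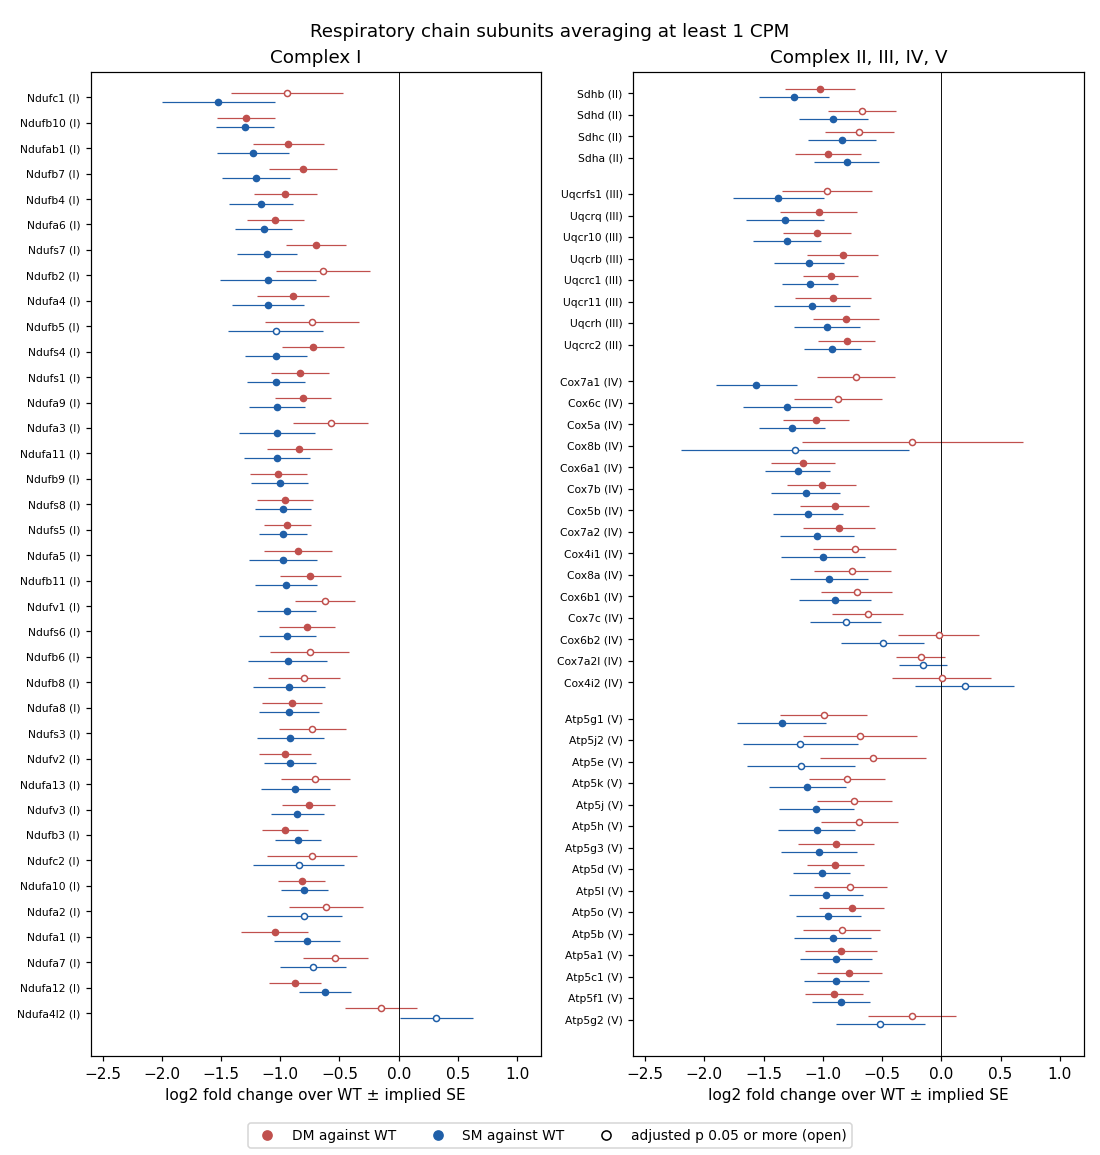
Log2 fold change over WT (horizontal axis) of 79 of the 80 subunits averaging at least 1 CPM (1 is not shown), for DM (red) and SM (blue) kidneys, grouped by complex; bars are ± 1 implied SE, and open symbols have an edgeR adjusted p of 0.05 or more. The ubiquitous subunits form a band between -1.52 and -0.51 in SM kidneys, and Ndufa4l2, Cox4i2, Cox7a2l and Cox6b2 lie to its right.

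Complex I, the NADH dehydrogenase where most electrons enter, fell for 33 of 38 rows in SM kidneys in the authors' deposited table (median -0.96). All 7 of its nuclear core subunits, which carry the flavin and the iron-sulfur clusters, were lower, with a median of -0.95 in the authors' deposited table. Ndufv1, which holds the flavin and the NADH site, had an implied 169 CPM in DM kidneys, 135 CPM in SM kidneys and 260 CPM in WT kidneys. Its deposited fold change in SM against WT was -0.95 (implied SE 0.25, edgeR adjusted p = 0.00268 in the authors' deposited table). Ndufv2, another flavoprotein-arm subunit, stood at -0.91 (implied SE 0.22), and Ndufs1, the largest core subunit, at -1.03 (implied SE 0.25 by the authors' deposited table). Ndufs3 stood at -0.92, and Ndufs7 and Ndufs8, which carry clusters close to the quinone site, at -1.11 and -0.98 in the authors' deposited table.

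Accessory subunits of complex I surround the core and stabilise it. Of the 30 ubiquitous ones by name, Ndufa4 included, 26 were lower in SM kidneys in the authors' deposited table (median -0.98). The lowest was Ndufc1 (chr3:51404677-51408988), a small membrane-arm subunit, with an implied 43.8 CPM in DM kidneys, 29.3 CPM in SM kidneys and 84.2 CPM in WT kidneys. Its fold change in SM against WT was -1.52 with a wide implied SE of 0.48 (edgeR adjusted p = 0.0154 in the authors' deposited table). Ndufb10 (chr17:24722060-24724478), also of the membrane arm, was measured more tightly, at an implied 137 CPM in DM kidneys, 136 CPM in SM kidneys and 336 CPM in WT kidneys. It stood at -1.30 (implied SE 0.24, edgeR adjusted p = 3.81e-06 in the authors' deposited table), the smallest adjusted p of complex I. Ndufab1, the mitochondrial acyl carrier protein, stood at -1.23 (implied SE 0.30 by the authors' deposited table for SM over WT). At the other end, Ndufa12 was still called at -0.62 (implied SE 0.22, edgeR adjusted p = 0.0373 in the authors' deposited table), while the paralogue Ndufa4l2 stood at 0.32 (implied SE 0.31) and was not called.

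All 4 subunits of complex II, succinate dehydrogenase, which also serves the TCA cycle, fell in SM kidneys. Sdha, the flavoprotein, had an implied 579 CPM in DM kidneys, 646 CPM in SM kidneys and 1123 CPM in WT kidneys, and stood at -0.80 (implied SE 0.28 by the authors' deposited table for SM over WT). Sdhb, the iron-sulfur subunit, had an implied 205 CPM in DM kidneys, 176 CPM in SM kidneys and 417 CPM in WT kidneys, and stood at -1.25 (implied SE 0.30 by the same authors' deposited table). The membrane anchors Sdhc and Sdhd stood at -0.84 and -0.91 in the authors' deposited table. The 95% intervals of these 4 fold changes overlap.

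Complex III, the cytochrome bc1 complex, fell for 8 of 8 rows in SM kidneys, with the lowest median of the 5 complexes in the authors' deposited table, -1.11, though differences between complexes were not tested. Uqcrfs1, the Rieske iron-sulfur protein, had an implied 210 CPM in DM kidneys, 158 CPM in SM kidneys and 411 CPM in WT kidneys. It stood at -1.38 (implied SE 0.39, edgeR adjusted p = 0.00498 in the authors' deposited table). Uqcrq and Uqcr10, small subunits of the complex, followed at -1.32 and -1.30 in the authors' deposited table. The core proteins Uqcrc1 and Uqcrc2 stood at -1.11 and -0.92 in the authors' deposited table, and Uqcrh, the hinge protein near cytochrome c1, at -0.96. Cyc1, cytochrome c1 itself, whose name the pattern does not take, had an implied 262 CPM in DM kidneys, 225 CPM in SM kidneys and 498 CPM in WT kidneys.

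Complex IV, cytochrome c oxidase, fell for 11 of 18 rows, with 9 of its 10 ubiquitous subunits among them (median of these 10 in the authors' deposited table -1.09). Cox5a had an implied 223 CPM in DM kidneys, 194 CPM in SM kidneys and 465 CPM in WT kidneys, and Cox6c 298, 221 and 545 CPM in the same order of groups. Cox6c stood at -1.30 (implied SE 0.38 by the authors' deposited table for SM over WT). Cox7c was the ubiquitous subunit of complex IV that was not called, at -0.81 (implied SE 0.30, edgeR adjusted p = 0.0504 in the authors' deposited table). The tissue isoforms of complex IV are described further on.

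Complex V fell for 12 of 15 rows in SM kidneys in the authors' deposited table (median -1.01). The catalytic F1 head fell for 4 of 5 rows and the membrane FO part with its stalks for 8 of 10. Atp5b, the catalytic beta subunit, had the highest level per length of the ubiquitous subunits, with an implied 1069 CPM per kb of transcript in DM kidneys, 1013 in SM kidneys and 1913 in WT kidneys. It stood at -0.92 (implied SE 0.33, edgeR adjusted p = 0.0377 in the authors' deposited table). Atp5e and Atp5j2, small subunits of the head and of the membrane part, both stood at -1.19 but were not called, with implied SEs of 0.46 and 0.49 and edgeR adjusted p of 0.0622 and 0.0895 in the authors' deposited table. Atp5f1, the peripheral stalk b subunit, stood at -0.85 (implied SE 0.24 by the authors' deposited table).

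The 8 ubiquitous subunits not called in SM kidneys were Atp5e, Atp5g2, Atp5j2, Cox7c, Ndufa2, Ndufa7, Ndufb5 and Ndufc2. Of these, 3 lay below the median fold change of the 74 in the authors' deposited table, and their median implied SE was 0.38, against 0.28 for the 66 that were called. A missed threshold therefore does not show that these transcripts were at the WT level. The exception in size was Atp5g2, whose fold change of -0.51 was the highest of the ubiquitous subunits in the authors' deposited table.

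**Figure D2:**
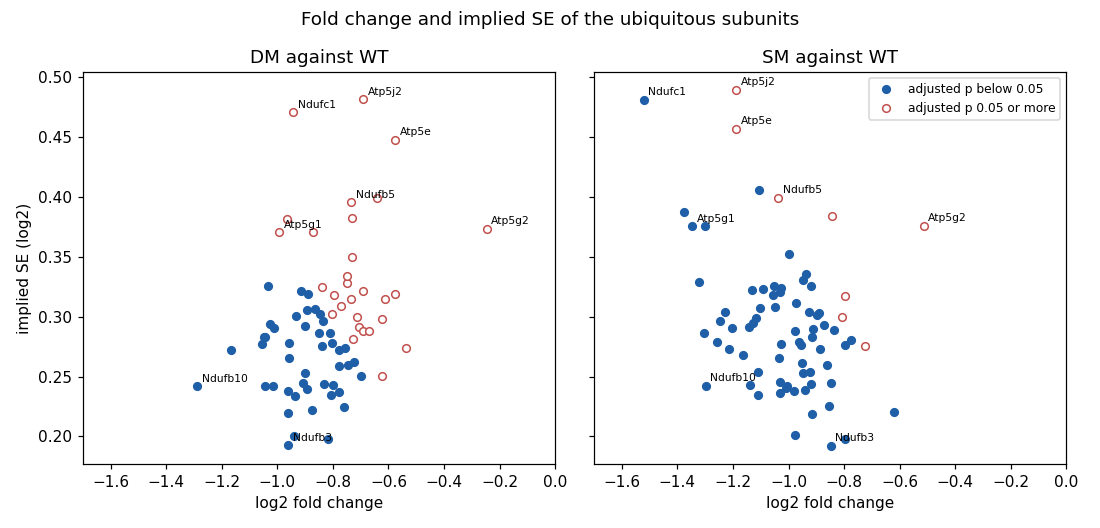
Implied SE (vertical axis) against log2 fold change (horizontal axis) for the 74 ubiquitous subunits in DM against WT (left) and SM against WT (right); filled blue circles have an edgeR adjusted p below 0.05 and open red circles 0.05 or more. Open circles sit high on the SE axis (Atp5j2, Atp5e, Ndufb5) as well as close to 0 in fold change (Atp5g2).

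In DM kidneys, labelled miR-21null in addition to the collecting duct deletion of Pkd2, the same complexes were again below WT. In the authors' deposited table for DM over WT, 46 of 83 subunit rows were lower and 0 were higher, and 67 had an unadjusted p below 0.05. Over all rows 5.92% were lower, 7.55% higher and 23.3% past that unadjusted p, and 8.53% of the rows averaging at least 1 CPM were lower. The median subunit stood at -0.80 in the authors' deposited table, 57.3% of the WT level. By complex, the rows called lower in DM kidneys were 25 of 38 in complex I, 2 of 4 in complex II, 7 of 8 in complex III, 6 of 18 in complex IV and 6 of 15 in complex V. Their medians in the authors' deposited table ran from -0.93 in complex III to -0.73 in complex IV. The complex IV median includes its tissue isoforms. Its 10 ubiquitous subunits alone had a median of -0.87, with 5 called lower. DM and SM kidneys are set against the same WT libraries, so the counts of the 2 comparisons are not independent of each other.

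Several subunits held nearly the same level in DM as in SM kidneys. Ndufb10 stood at -1.29 (implied SE 0.24, edgeR adjusted p = 5.09e-06) in the authors' deposited table for DM over WT, again the smallest adjusted p of complex I. Cox6a1, the ubiquitous form of a small complex IV subunit, had an implied 267 CPM in DM kidneys, 259 CPM in SM kidneys and 601 CPM in WT kidneys. It stood at -1.17 in DM and -1.21 in SM kidneys over WT in the authors' deposited tables. Ndufb3, with the smallest implied SE of the ubiquitous subunits, stood at -0.96 (implied SE 0.19 by the authors' deposited table for DM over WT). Others were called in SM but not in DM kidneys, such as Uqcrfs1, at -0.97 (implied SE 0.38, edgeR adjusted p = 0.0736) in the authors' deposited table for DM over WT. Atp5b stood at -0.84 (edgeR adjusted p = 0.0667) and Ndufc1 at -0.94 (edgeR adjusted p = 0.201) in that authors' deposited table. The core of complex I was called for 5 of 7 rows in DM kidneys.

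How far these counts go depends on the scaling between libraries. All fold changes are relative to a scaling under which the implied CPM of all rows sum to 936987 in DM kidneys, 945509 in SM kidneys and 1100450 in WT kidneys. If each group is instead given the same total, every fold change over WT shifts up by 0.23 in DM and by 0.22 in SM kidneys. Under that scaling, which was chosen after seeing the data, 20 of 83 subunits were lower in DM and 43 of 83 in SM kidneys, with medians of -0.57 and -0.76, and 0 were higher in either. The calls over all rows then move to 1169 lower and 3394 higher in DM kidneys, against 1801 and 2299 in the authors' deposited table, and to 1224 lower and 3436 higher in SM kidneys, against 1854 and 2394. In SM kidneys 8 of 8 rows of complex III were then lower, and 3 of 15 of complex V.

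No subunit differed past the threshold between DM and SM kidneys. In the authors' deposited table for DM over SM, edgeR called 0 of 83 subunit rows, where 24 of all 30431 rows (0.0789%) were called in either direction. At an unadjusted p below 0.05 there was 1 subunit, Cox7a1, where 3.75% of all rows passed. The median subunit stood at 0.19 in the authors' deposited table, 113.9% of the SM level, and 71 of 83 rows were above 0, against 50.4% of the rows averaging at least 1 CPM. All subunits were measured in the same 6 libraries and are not independent of each other, and no test of their joint difference was made. The median of the 92 cytosolic ribosomal protein rows was 0.11 in the same authors' deposited table, and 75% of them were above 0. So were 87.5% of import translocases, 83.3% of TCA cycle genes, 80.3% of mitochondrial ribosomal rows and 80% of proximal tubule markers. The shares were 41.7% for regulators of mitochondrial genes, 35.7% for macrophage, 30% for fibroblast and 20% for principal cell markers. A shift above 0 was therefore not particular to the subunits.

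The 95% intervals from the implied SE bound what these libraries could show. For Ndufb10 the difference between DM and SM kidneys was 0.01 with an interval from -0.48 to 0.50, and for Atp5b it was 0.08 with an interval from -0.59 to 0.75 (fold changes from the authors' deposited table). The largest difference among ubiquitous subunits was that of Atp5e, 0.61 in the authors' deposited table, with an interval from -0.32 to 1.54. Ndufa1 and Ndufa12, accessory subunits of complex I, stood at the low end with -0.27 and -0.26 in the authors' deposited table, and their intervals also include 0. Across the 74 ubiquitous subunits the fold change of DM against SM was larger where the implied SE was larger (Pearson r = 0.69, Spearman rho = 0.61, across genes that share all libraries, given as a description).

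**Figure D3:**
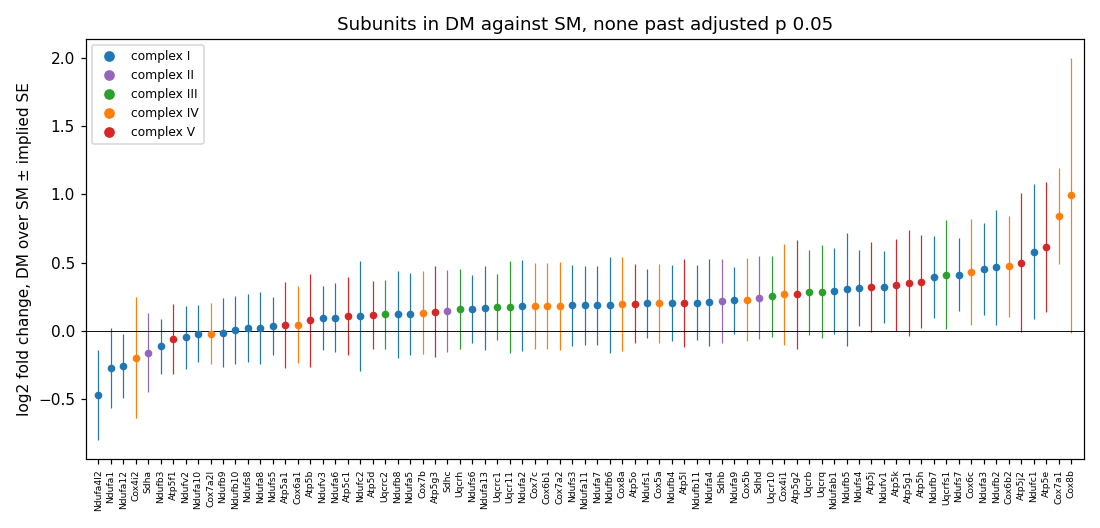
Log2 fold change of DM over SM kidneys (vertical axis) for 79 of the 80 subunits averaging at least 1 CPM (1 is not shown), in order of their fold change and coloured by complex; bars are ± 1 implied SE. Most points lie between 0 and 0.5 with bars that reach 0. The highest are Cox8b, Cox7a1 and Atp5e, with implied SEs of 1.01, 0.35 and 0.47. The bar of Cox8b reaches 0, and those of Cox7a1 and Atp5e do not.

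The guide strand of miR-21 is shown with its seed, bases 2 to 8, in capitals, because the seed sets which transcripts it can pair with directly.
miR-21a-5p (RefSeq, GRCm38.p6, chr11:86584120-86584141, minus strand): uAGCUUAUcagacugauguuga
The complementary word ATAAGCT occurred in the longest annotated 3′ UTR of 2 of the 83 subunit genes, 2.41%, against 8.12% of 12825 genes averaging at least 1 CPM. The subunit UTRs are short, with a median of 197 bases against 1195 bases. The sites are shown within 30 bases each, with the word in capitals.
Atp5g1: aatgcctaggccATAAGCTaggctgcttcc
Ndufv2, site 1: gaacttccctacATAAGCTttattcggttt
Ndufv2, site 2: gttaaattttttATAAGCTttatgtcaatg
In DM against SM, Atp5g1 stood at 0.35 (implied SE 0.39) and Ndufv2 at -0.05 (implied SE 0.23 by the authors' deposited table), and neither was called. The row for Mir21 itself had an implied 0.0514 CPM in each group, with fold changes of 0 and p-values of 1 in the authors' deposited tables, so its loss could not be checked here.

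Several subunits exist in more than one form. The c-subunit of complex V comes from 3 genes with the same mature protein. Atp5g3 (chr2:73908447-73911326) was the most abundant per length in each group, with an implied 760 CPM per kb in DM kidneys, 689 in SM kidneys and 1407 in WT kidneys. Atp5g2 (chr15:102662864-102672352) had an implied 274 CPM per kb in DM kidneys, 227 in SM kidneys and 325 in WT kidneys. Atp5g1 (chr11:96068852-96075670) had 34.5, 27.04 and 68.8 CPM per kb in the same order, over an annotated transcript of 4715 bases whose long 3′ UTR lowers this value. In the authors' deposited table for SM over WT, Atp5g1 stood at -1.35 (implied SE 0.38) and Atp5g3 at -1.03 (implied SE 0.32), and both were called. Atp5g2 stood at -0.51 with an interval from -1.25 to 0.22 (implied SE 0.38, edgeR adjusted p = 0.475 in the authors' deposited table). Atp5g2 accounted for 25.6% of the summed c-subunit level per length in DM kidneys, 24.1% in SM kidneys and 18.03% in WT kidneys. The difference between the 3 genes was not tested, and their intervals overlap.

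Among complex IV isoforms, Cox7a2l, which joins complexes III and IV into supercomplexes rather than serving as the usual subunit, was not called in any comparison. Cox7a2l had an implied 200 CPM in DM kidneys, 203 CPM in SM kidneys and 226 CPM in WT kidneys, close to each other in all 3 groups. Cox7a2, the form found in most tissues, had 188 CPM in DM kidneys, 165 CPM in SM kidneys and 341.6 CPM in WT kidneys. In the authors' deposited table for SM over WT, Cox7a2l stood at -0.15 with an interval from -0.56 to 0.25, and Cox7a2 at -1.05 (implied SE 0.31, edgeR adjusted p = 0.00784); the difference between both genes was not tested. Cox7a2l made up 36.5% of the Cox7a level per length in DM kidneys, 40.9% in SM kidneys and 26.5% in WT kidneys.

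The heart and muscle forms were rare in every group. Cox7a1 (chr7:30184144-30186078), the form of heart, muscle and brown fat, had an implied 15.3 CPM in DM kidneys, 8.52 CPM in SM kidneys and 25.2 CPM in WT kidneys. It fell in SM kidneys to 33.8% of the WT level (-1.56, implied SE 0.34, edgeR adjusted p = 0.000122). In DM kidneys it stood at -0.72 (edgeR adjusted p = 0.144), both by the authors' deposited tables. In DM against SM it stood at 0.84 (implied SE 0.35, unadjusted p = 0.016, edgeR adjusted p = 1 in the authors' deposited table). Cox6a2, the heart and muscle partner of Cox6a1, fell in both, with an implied 0.335 CPM in DM kidneys, 0.183 CPM in SM kidneys and 1.96 CPM in WT kidneys. Its fold changes in the authors' deposited tables were -2.55 (implied SE 0.53) in DM and -3.42 (implied SE 0.59) in SM over WT, at levels so low that these sizes are uncertain. Cox8b, also of muscle and brown fat, had 7.91 CPM in DM kidneys, 3.98 CPM in SM kidneys and 9.37 CPM in WT kidneys and was not called, with an implied SE of 0.96 in SM against WT. Cox7b2 and Cox8c, known from testis, stood at 0.13 CPM or less in each group, and no fold change is given.

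Markers of tissues that use these forms were examined beside them. Of 16 muscle markers, of which 3 averaged at least 1 CPM, 1 was lower and 1 higher in each comparison with WT in the authors' deposited tables. Over all rows 5.92% were lower and 7.55% higher in DM kidneys, and 6.09% and 7.87% in SM kidneys. Myh6 was the lower one, with an implied 0.0852 CPM in DM kidneys, 0.167 CPM in SM kidneys and 0.865 CPM in WT kidneys. Tnni2 was the higher one, with 0.815, 0.837 and 0.219 CPM in the same order. The defining Acta1 was not called, with 0.401 CPM in DM kidneys, 0.403 CPM in SM kidneys and 0.154 CPM in WT kidneys. Of 12 fat markers, 0 were called in DM and 1 was lower in SM kidneys in the authors' deposited tables. That is 8.33% in SM kidneys, near the 9.47% of rows averaging at least 1 CPM that were lower. The median implied SE of the fat markers was 0.92 in each comparison, so missed thresholds do not show unchanged levels. Ucp1, the uncoupling protein of brown fat, had an implied 38.9 CPM in DM kidneys, 9.96 CPM in SM kidneys and 83.1 CPM in WT kidneys (edgeR adjusted p = 0.649 in DM and 0.0618 in SM over WT in the authors' deposited tables). Cox7a1, Cox8b and Ucp1 had the same order of groups, WT highest and SM lowest. That order was common, as all 74 ubiquitous subunits stood below WT in both comparisons and 66 stood higher in DM than in SM kidneys. Among the 12 fat markers, 11 stood below WT in each comparison and 10 stood higher in DM than in SM kidneys. Lep was lowest in WT, with an implied 4.24 CPM in DM, 3.81 CPM in SM and 1.72 CPM in WT kidneys. The part of adhering fat in the Cox7a1 values was not tested.

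The forms known to respond to low oxygen were not called. Ndufa4l2, a paralogue of Ndufa4 (named for complex I but also known as a complex IV subunit), had an implied 8.63 CPM in DM kidneys, 11.9 CPM in SM kidneys and 9.58 CPM in WT kidneys, and Cox4i2, the lung-type form of Cox4i1, had 1.61, 1.84 and 1.61 CPM in the same order. Neither was called in any comparison. Cox4i1 itself fell in SM kidneys, at -0.999 (implied SE 0.35, edgeR adjusted p = 0.036 in the authors' deposited table). Cox6b2, the testis-type partner of Cox6b1, had 20.9 CPM in DM kidneys, 15.0 CPM in SM kidneys and 21.2 CPM in WT kidneys and was not called.

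**Figure D4:**
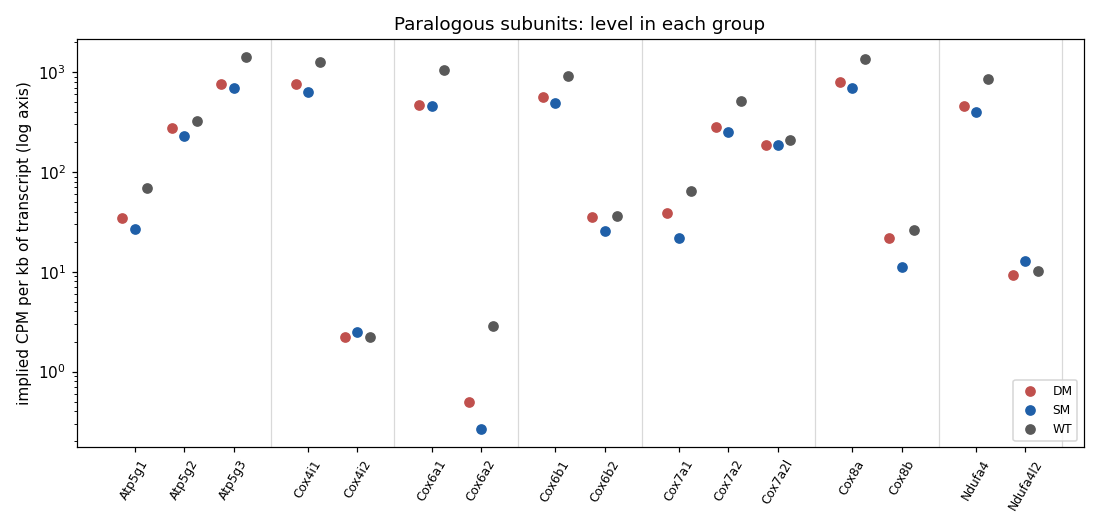
Implied CPM per kb of transcript (log axis) of subunits that exist in several forms, for DM (red), SM (blue) and WT (grey) kidneys; each point is a group value from the fit, without error bars, and vertical lines separate families. The ubiquitous forms stand well above their tissue forms, and Cox7a2l lies nearly level across the 3 groups.

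Assembly factors, which help to build the complexes, had medians nearer to WT than the subunits, a difference that was not tested. Of the 9 rows counted apart, 2 were lower in DM and 3 in SM kidneys in the authors' deposited tables, where 8.53% and 9.47% of all rows averaging at least 1 CPM were lower. Ndufaf6 was lower in both, at -0.78 in DM and -0.82 in SM kidneys, as was Atp5sl, at -0.77 and -0.76 in the authors' deposited tables, and Ndufaf4 was lower in SM kidneys at -0.97. The 7 Ndufaf rows had medians of -0.45 in DM and -0.64 in SM kidneys in the authors' deposited tables. A further list of 33 assembly factors of all complexes had 8 rows lower in DM and 10 in SM kidneys, which is 24.2% and 30.3% of the list, with medians of -0.47 and -0.54 in the authors' deposited tables. Coa6, which delivers copper to complex IV, had 27.5 CPM in DM kidneys, 27.4 CPM in SM kidneys and 51.7 CPM in WT kidneys.

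Beside the subunits, the TCA cycle with pyruvate dehydrogenase, which supplies their electrons, was lower for 16 of 18 genes in each comparison, with medians of -0.75 in DM and -0.89 in SM kidneys in the authors' deposited tables. Fh1, fumarase, had 150 CPM in DM kidneys, 123 CPM in SM kidneys and 238 CPM in WT kidneys. Among 22 other electron carriers and ubiquinone genes, 10 were lower in DM and 12 in SM kidneys in the authors' deposited tables. Coq9, needed for ubiquinone synthesis, stood at -1.05 in DM and -1.04 in SM kidneys in the authors' deposited tables. Of 76 mitochondrial ribosomal protein rows, 9 were lower in DM and 20 in SM kidneys, with medians of -0.40 and -0.51 in the authors' deposited tables. Import translocases were lower for 2 of 24 rows in DM and 6 in SM kidneys, genes of the inner membrane and its carriers for 5 of 19 and 8 of 19, and genes of mitochondrial DNA expression for 1 of 15 and 3 of 15 in the authors' deposited tables. In DM kidneys the shares of import translocases and of mitochondrial DNA expression, 8.33% and 6.67%, were near the 8.53% of all rows averaging at least 1 CPM that were lower. In SM kidneys their shares were 25% and 20%, where 9.47% of such rows were lower. The 92 cytosolic ribosomal protein rows had medians of 0.10 in DM and 0.00 in SM kidneys in the authors' deposited tables. Of these, edgeR called 0 in either comparison and 0 had an unadjusted p below 0.05. Differences between these lists were not tested.

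Of 12 regulators of mitochondrial genes, 4 were lower and 0 higher in each comparison in the authors' deposited tables, while 8 had fold changes below 0 and 4 above 0. Across all rows averaging at least 1 CPM, 8.53% were lower in DM and 9.47% in SM kidneys. Esrra, the estrogen-related receptor that acts with PGC-1, had 84.9 CPM in DM kidneys, 60.7 CPM in SM kidneys and 147 CPM in WT kidneys (-0.79 in DM and -1.28 in SM over WT in the authors' deposited tables). Its coactivator Ppargc1b had 16.3 CPM in DM kidneys, 14.8 CPM in SM kidneys and 32.0 CPM in WT kidneys, and was lower in both, as were Esrrb and Esrrg. Ppargc1a stood at -0.65 and -0.60 (edgeR adjusted p = 0.097 in DM and 0.134 in SM over WT in the authors' deposited tables). Pprc1, the other member of the PGC-1 family, stood above WT at 0.70 and 0.27 and was not called either (edgeR adjusted p = 0.0809 in DM and 0.678 in SM over WT in the authors' deposited tables). Nrf1, Gabpa and Yy1 stood between -0.16 and 0.12 in both comparisons in the authors' deposited tables.

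Binding words of these factors were counted in the RefSeq window from 250 bases before to 50 bases after the start, which was found for 68 of the 83 subunit genes (73 windows). The NRF1 word GCGCATG, searched on both strands like the others, was in 17.8% of subunit windows and in 3.91% of all 32851 windows. It was found in 13 subunit genes, among them Atp5g2, Atp5k, Cox5b, Cox6a1, Ndufa11, Sdhb and Uqcrc1. The word CCGGAAG of GABPA and other ETS factors was in 21.9% of subunit windows and 8.86% of all. The word TNAAGGTCA of the estrogen-related receptors was in 4.11% and 1.28%, in Atp5g3, Ndufb4 and Sdhd. The YY1 word AAGATGGCG was in 9.59% and 1.403%, and the GC box GGGCGG in 39.7% and 35.7%. The set of all windows was not limited to genes averaging at least 1 CPM here, so it is not matched to the subunits in expression. In SM against WT, subunits with and without the NRF1 word had medians of -1.09 and -0.98 in the authors' deposited table. Those with the receptors' word, only 3 genes, and without it had -1.03 and -0.98. For the ETS word they were -1.02 and -0.99, for the YY1 word -1.06 and -0.98, and for the GC box -0.92 and -1.03. In DM against WT they were -0.90 and -0.78 for NRF1 and -0.89 and -0.80 for the receptors. The ETS word had -0.76 and -0.84 there, the YY1 word -0.73 and -0.82 and the GC box -0.83 and -0.80. The direction differed between words and comparisons, and these differences were not tested. A word in a promoter is a match of letters and shows no binding.

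**Figure D5:**
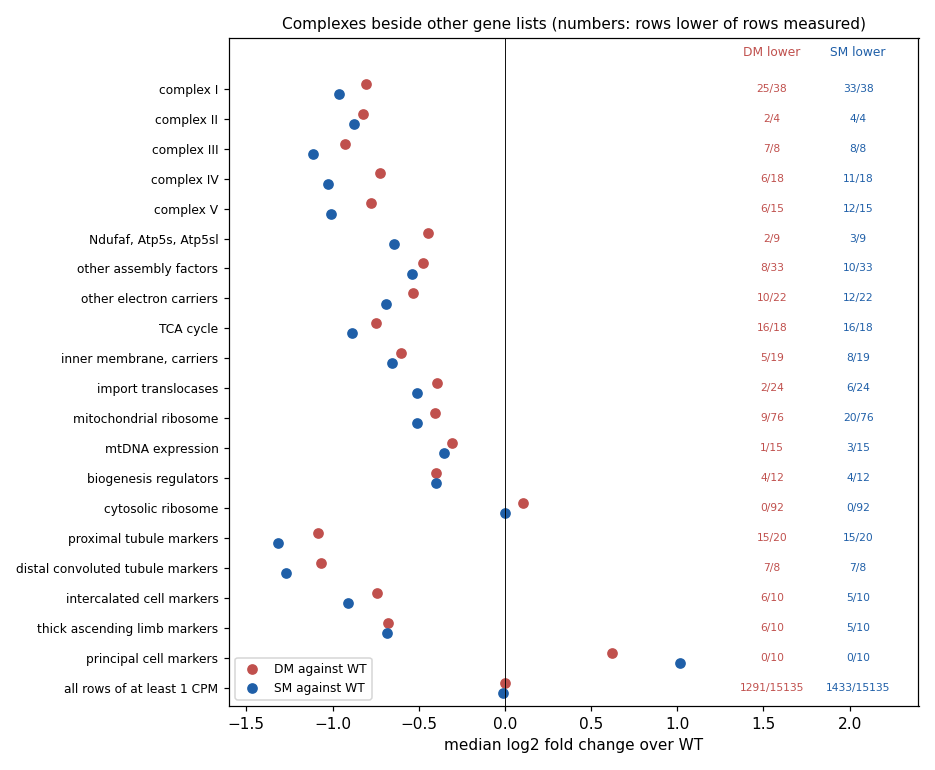
Median log2 fold change over WT (horizontal axis) of each complex, of other mitochondrial lists, of the cytosolic ribosome and of kidney cell type markers, for DM (red) and SM (blue) kidneys; the numbers at the right are rows called lower of rows measured. The 5 complexes lie between -1.11 and -0.73, next to the TCA cycle and tubule markers, and the cytosolic ribosome lies at 0.10 and 0.00.

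Markers of the tubule segments that are rich in mitochondria were lower in the same kidneys. Of 20 proximal tubule markers, 15 were lower in each comparison, with medians of -1.08 in DM and -1.32 in SM kidneys in the authors' deposited tables. Their summed implied CPM was 18028 in DM kidneys, 15905 in SM kidneys and 37884 in WT kidneys, 0.476 and 0.420 times the WT sum, where the subunits were at 0.560 and 0.507. Of 8 distal convoluted tubule markers 7 were lower in each comparison, of 10 thick ascending limb markers 6 in DM and 5 in SM kidneys, and of 10 intercalated cell markers 6 in DM and 5 in SM kidneys in the authors' deposited tables. Across all rows averaging at least 1 CPM, 8.53% were lower in DM and 9.47% in SM kidneys. Principal cell markers, from the segment where Pkhd1Cre acts, were higher for 4 of 10 in DM and 8 of 10 in SM kidneys. Aqp2 and Aqp3 of this list stood below WT and were not called. Their fold changes were -0.06 and -0.11 in DM and -0.28 and -0.27 in SM kidneys. Macrophage markers were higher for 13 and 14 of 14 and fibroblast markers for 7 of 10 in each, in the authors' deposited tables. Over all rows 7.55% were higher in DM and 7.87% in SM kidneys. The summed macrophage markers had 555 CPM in DM kidneys, 556 CPM in SM kidneys and 147 CPM in WT kidneys. In whole kidney RNA, fewer tubule cells and less respiratory chain RNA per cell cannot be told apart, and the part of cell makeup in the subunit values was not tested.

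Pkd2 itself, whose deletion is driven in the collecting duct, stood at -0.49 in DM and -0.41 in SM kidneys over WT (edgeR adjusted p = 0.0838 and 0.179 in the authors' deposited tables). The defining liver marker Alb had an implied 1.03 CPM in DM kidneys, 0.328 CPM in SM kidneys and 132 CPM in WT kidneys. Of 15 liver markers 11 were lower in each comparison, while 2 were higher in DM and 1 in SM kidneys, in the authors' deposited tables. Over all rows 5.92% were lower and 7.55% higher in DM kidneys, and 6.09% and 7.87% in SM kidneys. Liver is also rich in mitochondria, and the part of such RNA in the WT level of the subunits, on which every fold change over WT rests, was not tested. Without values per library, liver RNA in 1 WT library and in several cannot be told apart. Of 6 erythroid markers, Slc4a1, also of intercalated cells, was lower in each comparison in the authors' deposited tables.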

How the data were processed

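Per the labels' protocols, stranded total RNA libraries were made from whole kidneys of 10 mice. Tools listed in the submitters' processing notes are edgeR 3.2.4, Subread 1.4.6 with featureCounts, Cufflinks, TopHat2 2.0.12 and bcl2fastq 1.8.4, on build mm10, without their roles. Per the file headers, the authors deposited 3 tables whose rows hold an average log2 CPM, a log2 fold change, a likelihood ratio score, the p-value and, as adjusted p, the false discovery rate. Each p-value deposited follows from its score by the chi-square distribution, and adjustment was by Benjamini-Hochberg across all 30431 rows. The average is the same in all tables, and above 1 CPM the fold changes of the comparisons with WT subtract to that of DM against SM, so the tables were read as contrasts of 1 fit of all libraries.

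The planned test was therefore edgeR's likelihood ratio test as the authors deposited it, at an adjusted p below 0.05. The implied SE, implied CPM and 95% intervals were computed from the tables (Python 3.11.15, pandas 2.3.3, scipy 1.17.1). The implied SE and CPM were also run on simulated counts. These had equal depths, 1 level of variation for all genes and a plain mean as the average, which may differ from the deposited fit. How often the 95% intervals hold the true value was not tested. Library depths are unknown, and no value per library entered. How reads shared with paralogues or processed pseudogenes, common in these families, were counted is not known from the sources used here. Positions and transcript lengths came from GENCODE mouse release 21 (GRCm38, the assembly of mm10), in which 92 of 92 rows were matched. The 22 gene lists, 21 with measured rows, and the members were chosen with earlier results of these data known. The ribosomal name pattern also took 10 Rps6k kinase rows, which were left out after their values were seen. Named with values were, per complex, the 3 lowest and 2 highest rows in SM against WT of at least 1 CPM, all Sdh, core complex I and paralogous rows, and examples from the other lists with the smallest adjusted p. A row that this rule names is not reported here by name. Other genes named, such as those with the smallest errors, were chosen after their values were seen. Alternatives were other thresholds, rows adjusted over, members and scalings.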

Additional observations from a re-analysis of the deposited data

How the results depend on the processing

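Of 55 alternative values, 52 were kept and 0 reversed. A count was kept if it stayed within 1.5 times the count reported. A median was kept if it moved by less than the median implied SE, a wide margin. Counts of 0 that stayed 0, such as those of subunits higher than WT or called in DM against SM, are among the 52. The 3 that moved were counts of subunits lower than WT. At an adjusted p below 0.01, 25 subunits were lower in DM kidneys, against 46 at 0.05. In SM kidneys 46 were lower at 0.01, against 68 at 0.05, which is just within 1.5 times and was counted as kept. With each group scaled to the same total of implied CPM, chosen after seeing the data, 20 were lower in DM and 43 in SM kidneys. Other scalings, the rows the p-values were adjusted over, and the members included moved no count by over 1.5 times. Leaving out each replicate in turn was not possible because the tables hold no value per library. No paired analysis was possible because the animal numbers are not shared between groups and values per library were not analysed here. Depth is unknown, so the implied SE, which assumes the deposited fit, is the only error given.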
